A study of Bos grunniens with 18 samples.

Results

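Signalling through the IL-6 type receptors, from ligand and receptor to kinase, transcription factor and brake, was described here at the RNA level in the whole blood of yaks across 3 reproductive stages. The genes were chosen by name from the deposited gene table: IL6R, IL6ST, OSM, JAK2, JAK3, STAT3, STAT5A, STAT5B, SOCS3 and CISH. Of these 10 names, 9 were found among the 20607 genes of the table, and all 9 passed the low-count filter into the 14508 genes tested. IL6ST, the shared signalling receptor gp130, was not matched by its name and is not analysed here.

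The animals were adult female yaks (Bos grunniens) of 4 to 8 years, and 6 libraries were made for each of the 3 stages, where Y-A stands for anestrus, Y-E for estrus and Y-P for pregnancy. Per the study, the blood of 6 cows in their second calving year was tracked through the stages, the herd was brought into estrus with a progesterone pessary, cloprostenol (a PGF2α analogue) and GnRH, and insemination was timed. The sources name no other agent and no genetic modification for any group. Blood was mixed with TRIzol LS at collection, and poly(A) RNA was sequenced from unseparated blood. In such samples fewer cells of a type and less RNA per cell cannot be told apart.

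Cytokines of the IL-6 family bind a specific receptor chain such as IL6R and then signal through gp130, whose attached Janus kinases phosphorylate STAT3. Phosphorylated STAT3 enters the nucleus and induces, among other genes, SOCS3, which binds the receptor and its kinase and so shuts the signal off. STAT5A and STAT5B serve a neighbouring set of receptors, those of growth hormone, prolactin, the common gamma chain cytokines and the myeloid colony-stimulating factors, and CISH is their corresponding inducible brake. In blood, IL6R is carried mainly by neutrophils, monocytes and some T cells. None of the phosphorylation steps is visible in RNA counts.

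Library totals ran from 30247267 to 48401076 counts. Levels are given as CPM, counts scaled to a common library size after TMM normalization (which evens out differences in library composition), unless FPKM is named. Y-E 6 stood apart from its stage: genes of the hemoglobin complex took 8.36% of its counts, against 0.0898% to 0.713% in the other 5 Y-E libraries, 3.10% to 16.7% in Y-A and 0.0272% to 0.376% in Y-P. The libraries also fell into 2 sets by how many counts stood behind 1 unit of FPKM, relative to the library total, over 9424 genes. In 6 libraries (Y-A 6, Y-E 6 and Y-P 1, 4, 5 and 6) this value was 0.920 to 0.940, and in the other 12 it was 0.986 to 1.05. No label names this split, and it goes partly with stage, since 4 of 6 Y-P libraries but 1 of 6 Y-A and 1 of 6 Y-E libraries were in the smaller set. The larger set held 5 Y-A, 5 Y-E and only 2 Y-P libraries. Calls of the 9 genes that change with Y-E 6 left out or with the split, and calls of other named genes that are lost with them, are given both ways, the split having been found after the values were seen.

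Per unit of gene length, IL6R was the most abundant of the 9 genes, at 206 ± 50.5 FPKM (SD, n = 18), and stood above JAK3 in 18 of 18 libraries. JAK3 followed at 65.7 ± 13.4 FPKM and exceeded the next gene in 14 of 18 libraries. STAT5B (55.7 ± 6.94), STAT3 (54.4 ± 10.8), STAT5A (54.3 ± 6.004), JAK2 (53.5 ± 18.6) and SOCS3 (52.7 ± 23.1 FPKM) could not be ordered, as each neighbour led in 9 or 10 of 18 libraries. CISH lay lower, at 25.6 ± 5.30 FPKM, below SOCS3 in 17 of 18 libraries. OSM was the least abundant, at 7.18 ± 3.71 FPKM, below CISH in every library. This order rests on the gene lengths behind the deposited FPKM. Relative to STAT5A, the length implied by counts and FPKM was 0.37 for IL6R, 0.629 for STAT5B and 1.79 for STAT3. In CPM, STAT3 had the higher mean, at 456, 507 and 336 in Y-A, Y-E and Y-P, against 343, 433 and 241 for IL6R. The genes also differed in how far they varied. From the lowest to the highest library, FPKM spanned 1.48-fold for STAT5B and 1.52-fold for STAT5A, but 4.69-fold for SOCS3, 5.58-fold for JAK2 and 5.81-fold for OSM.

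**Figure D1:**
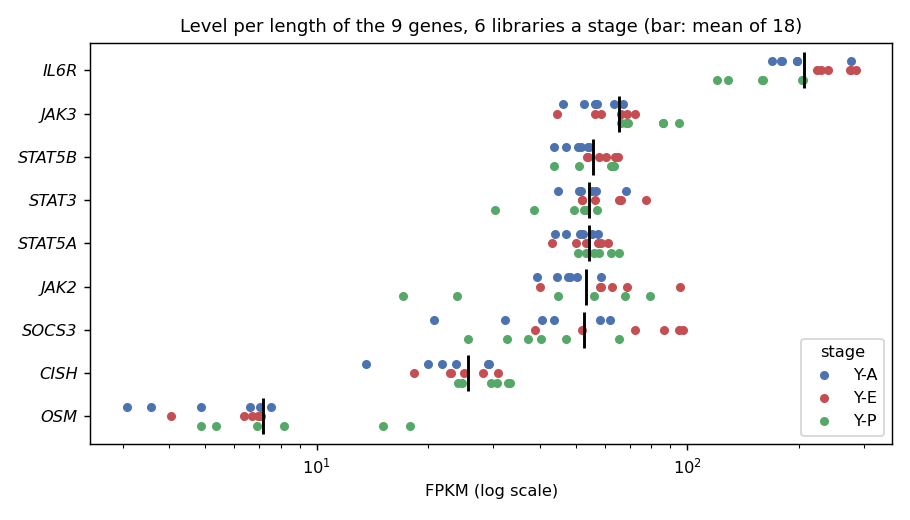
FPKM of the 9 genes on a log scale, one point per library coloured by stage (6 libraries a stage), with a black bar at the mean of the 18 libraries. IL6R stands alone at the top (mean 206 FPKM), 5 genes from STAT5B to SOCS3 share means of 52.7 to 55.7 FPKM, and OSM lies lowest (7.18 FPKM).

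The genes differed in which comparisons they passed, which does not show that their changes differed from each other. From estrus to pregnancy, where 14.4% of all genes passed, the receptor IL6R, the transcription factor STAT3 and its brake SOCS3 fell. JAK2, JAK3, STAT5A, STAT5B, CISH and OSM did not pass in any comparison in the main fit, edgeR on stage alone over all 18 libraries. JAK2 had a log2 fold change of -0.64 ± 0.26 (SE) in Y-P vs Y-E, against -0.60 ± 0.15 for STAT3, which passed. In the main fit IL6R alone fell from anestrus to pregnancy, where 5.83% of all genes passed. Between anestrus and estrus no member passed, and 0.0207% of all genes did. The test was edgeR's quasi-likelihood test over all 18 libraries, two-sided, with Benjamini-Hochberg adjustment over the 14508 genes, and passing means an adjusted p under 0.05. The 3 comparisons share groups with each other, so the 2 sets of values against Y-P are not independent.

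**Figure D2:**
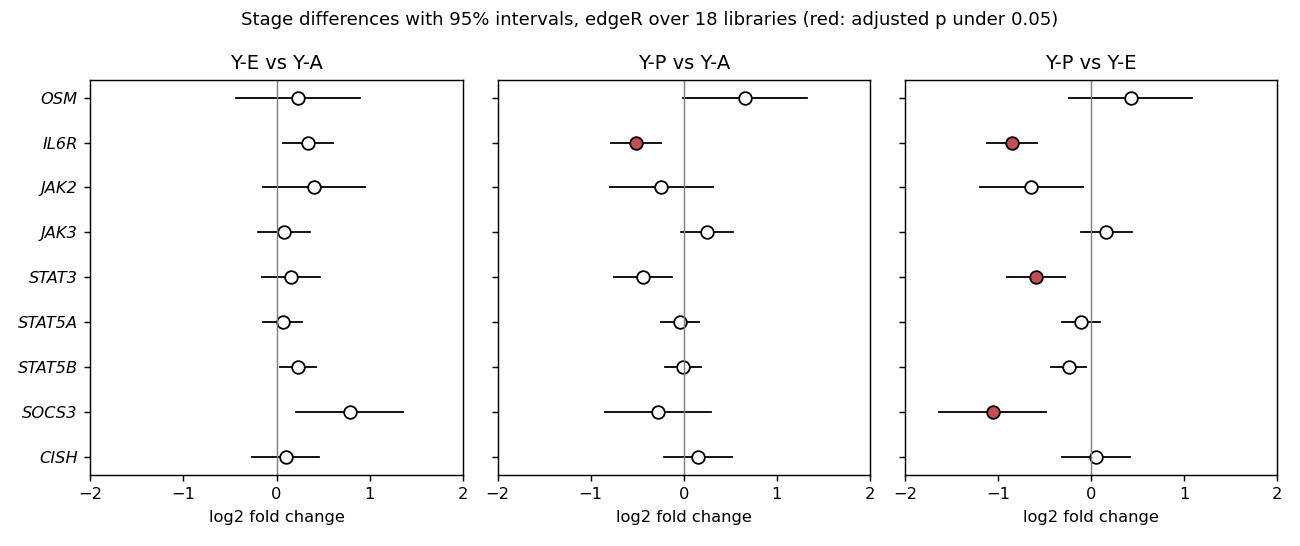
Log2 fold change of each gene (point) with its 95% interval (line) in the 3 comparisons, from edgeR over 18 libraries. Red points have an adjusted p under 0.05: none in Y-E vs Y-A, IL6R in Y-P vs Y-A, and IL6R, STAT3 and SOCS3 in Y-P vs Y-E, all of them lower in Y-P.

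OSM, oncostatin M, is an IL-6 family cytokine made by activated leukocytes (ENSBGRG00000023316, chromosome 16, 76917165 to 76920864, minus strand in the deposited table). It was the one ligand among the genes chosen. OSM spanned 3.00 to 6.33 CPM (median 4.95) in Y-A, 3.27 to 6.66 (median 5.82) in Y-E and 3.49 to 13.1 (median 6.05) in Y-P. Only Y-P 2 and Y-P 6 stood above all Y-A and Y-E libraries, and the other 4 Y-P libraries lay among them. The log2 difference was 0.66 ± 0.32 (SE) for Y-P vs Y-A (edgeR adjusted p = 0.226) and 0.43 ± 0.32 for Y-P vs Y-E (edgeR adjusted p = 0.406). The intervals, -0.01 to 1.32 and -0.24 to 1.09, are wide. OSM had 91 to 543 counts a library. Its SE in Y-P vs Y-E was 0.317, against 0.275 for SOCS3, 0.263 for JAK2 and 0.173 for CISH. The order of these SEs did not follow counts, as CISH had 867 to 2489 counts a library and JAK2 3020 to 17064. What sets the SE of OSM was not tested.

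IL6R encodes the ligand-binding chain of the IL-6 receptor (ENSBGRG00000008129, chromosome 3, 877479 to 935485, plus strand). Its level spanned 289 to 460 CPM (median 334) in Y-A, 378 to 496 (median 426) in Y-E and 195 to 292 (median 230) in Y-P. All 6 Y-P libraries lay below all 6 Y-E libraries, and 5 of 6 lay below the lowest Y-A library, while Y-A and Y-E overlapped. IL6R fell by 44.4% from Y-E to Y-P, a log2 fold change of -0.85 ± 0.13 (SE, edgeR adjusted p = 0.000578). It was lower in Y-P in 6 of 6 same-numbered pairs, which the lack of overlap fixes under any numbering. The sources do not state that a number marks a cow, here or for the other genes. Of all genes tested, 3.84% were lower in Y-P without overlap in this comparison. Against Y-A the log2 fold change was -0.51 ± 0.13 (edgeR adjusted p = 0.0278), again lower in 6 of 6 pairs. From Y-A to Y-E it was 0.33 ± 0.13 (edgeR adjusted p = 0.602).

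The fall of IL6R against Y-E remained past the threshold without Y-E 6 (-0.87, edgeR adjusted p = 0.001), with the library split in the fit (-0.91, edgeR adjusted p = 0.000459) and in the 12 libraries of the larger set (-1.11). Of Y-P, the larger set holds only Y-P 2 and Y-P 3, the 2 lowest Y-P libraries for IL6R (195 and 212 CPM, against 223 to 292). The fall against Y-A was close to the threshold: it was lost when Y-A 4, Y-A 5, Y-P 2, Y-P 3, Y-P 4 or Y-P 5 was left out, with edgeR adjusted p from 0.0189 to 0.062 over the 18 omissions. It was also lost with only the 2 stages compared (edgeR adjusted p = 0.0505) and, with a smaller value, with scaling by library size only (-0.34, edgeR adjusted p = 0.111) and by limma on log2(FPKM + 1) and log2(FPKM + 0.1) (-0.31 in both, adjusted p = 0.154 and 0.184).

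JAK2 is a kinase attached to gp130 and to the receptors of growth hormone and prolactin (ENSBGRG00000005982, chromosome 7, 81046239 to 81173575, plus strand). It spanned 186 to 258 CPM (median 199) in Y-A, 158 to 393 (median 270) in Y-E and 69.6 to 277 (median 182) in Y-P. The highest values of Y-A and Y-E were in Y-A 6 and Y-E 6 and the lowest values of all in Y-P 2 and Y-P 3, so each extreme went with the library split. JAK2 did not pass in the main fit. Its log2 fold change was -0.64 ± 0.26 for Y-P vs Y-E (edgeR adjusted p = 0.111). For Y-P vs Y-A it was -0.24 ± 0.26 (edgeR adjusted p = 0.638). With the split as a term, the same differences were -1.19 (edgeR adjusted p = 0.000848) and -0.82 (edgeR adjusted p = 0.0135).

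Within the larger set, JAK2 stood at 186 to 216 CPM in 5 Y-A libraries and 158 to 302 in 5 Y-E libraries. The 2 Y-P libraries of this set were at 69.6 and 99.2 CPM. Within the smaller set, the 4 Y-P libraries, at 168 to 277 CPM, lay below Y-E 6 (393 CPM) but on both sides of Y-A 6 (258 CPM). In the 12 libraries of the larger set the log2 fold changes were -1.56 (edgeR adjusted p = 0.000836) and -1.22 (edgeR adjusted p = 0.00472), from 2 Y-P libraries. Without Y-P 1, JAK2 passed against Y-E by edgeR over the other 17 libraries (adjusted p = 0.043).

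JAK3 pairs with the common gamma chain in lymphocytes and acts mainly through STAT5 (ENSBGRG00000026011, chromosome 8, 4662977 to 4681669, minus strand). It spanned 246 to 386 CPM (median 285) in Y-A, 222 to 368 (median 328) in Y-E and 300 to 423 (median 347) in Y-P. All 3 stages overlapped. Its log2 fold changes in Y-P had the opposite sign to those of JAK2, at 0.25 ± 0.13 against Y-A (edgeR adjusted p = 0.278) and 0.17 ± 0.13 against Y-E (edgeR adjusted p = 0.445). With the split as a term JAK3 passed against Y-A (0.41, edgeR adjusted p = 0.0316), whereas in the 12 libraries of the larger set, 2 of them Y-P, it did not (0.29). It also passed there by limma on log2(FPKM + 1) and log2(FPKM + 0.1) (0.45 in both, adjusted p = 0.0283 and 0.0435).

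STAT3 is the transcription factor that gp130 activates (ENSBGRG00000010257, chromosome 19, 23602620 to 23779756, plus strand). It spanned 349 to 587 CPM (median 460) in Y-A, 395 to 653 (median 497) in Y-E and 238 to 412 (median 344) in Y-P. In Y-P, 5 of 6 libraries lay below the lowest Y-E library and 3 of 6 below the lowest Y-A library. STAT3 fell by 33.8% from Y-E to Y-P, a log2 fold change of -0.60 ± 0.15 (edgeR adjusted p = 0.0124), and was lower in Y-P in 6 of 6 pairs. Against Y-A the difference was -0.44 ± 0.15 (edgeR adjusted p = 0.0818), also lower in 6 of 6 pairs, and it passed with the split as a term (-0.53, edgeR adjusted p = 0.0344) and by DESeq2 (-0.44, adjusted p = 0.0427). Without Y-E 6, the value against Y-E was -0.63 (edgeR adjusted p = 0.013). On the FPKM scale, tested with limma on log2(FPKM + 1), the fall against Y-E was -0.40 and missed the threshold (adjusted p = 0.0633).

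The annotated span of STAT3 covers 177137 bases and takes in or touches 5 other genes. STAT5A lies within it on the opposite strand, and STAT5B lies within it on the same strand. The dUTP library protocol in the labels keeps strand, but whether the counting used it is not given in the sources used here, so reads of STAT3, STAT5A and STAT5B may have been shared out among them. STAT5A and STAT5B are also close paralogs, and the split of reads between them is uncertain.

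STAT5A (ENSBGRG00000010846, chromosome 19, 23642346 to 23667636, minus strand) acts downstream of prolactin and interleukin receptors. It spanned 208 to 264 CPM (median 238) in Y-A, 191 to 288 (median 251) in Y-E and 217 to 246 (median 230) in Y-P. The stages overlapped throughout, and of the 95% intervals of its 3 log2 fold changes, the one reaching farthest from 0 was that for Y-P vs Y-E, -0.31 to 0.10. STAT5B (ENSBGRG00000011176, chromosome 19, 23721179 to 23747103, plus strand), the main mediator of growth hormone, spanned 139 to 156 CPM (median 144) in Y-A, 144 to 199 (median 170) in Y-E and 123 to 158 (median 149) in Y-P. In 4 of 6 Y-E libraries STAT5B lay above the highest Y-A library. Its log2 fold change was 0.23 ± 0.09 for Y-E vs Y-A (edgeR adjusted p = 0.622) and -0.24 ± 0.09 for Y-P vs Y-E (edgeR adjusted p = 0.0834), and the latter passed without Y-E 4 (edgeR adjusted p = 0.0388) and by DESeq2 over all libraries (-0.25, adjusted p = 0.0386).

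SOCS3 encodes the brake on gp130 signalling and is itself a STAT3 target (ENSBGRG00000017084, chromosome 19, 11005946 to 11007175, minus strand). It spanned 30.4 to 95.4 CPM (median 65.4) in Y-A, 53.7 to 156 (median 119) in Y-E and 36.6 to 80.2 (median 48.4) in Y-P. In Y-E, 4 of 6 libraries lay above the highest Y-A library, and 4 of 6 Y-P libraries lay below the lowest Y-E library, so both pairs of stages overlapped in part. SOCS3 fell by 52.0% from Y-E to Y-P, a log2 fold change of -1.06 ± 0.28 (edgeR adjusted p = 0.0153), and was lower in Y-P in 5 of 6 pairs. It was the one member that also reached the study's fold threshold, an absolute log2 fold change of 1 or more, as did 2.22% of all genes tested in the lower direction. With the replicate number as a block its log2 fold change was -0.99 (edgeR adjusted p = 0.018), under that fold threshold, which it also missed without Y-E 2, Y-E 3 or Y-P 2 (-0.97 to -0.94), with library size only (-0.89) and by limma on FPKM (-0.80 and -0.82).

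From Y-A to Y-E, SOCS3 had the highest log2 fold change of the 9 genes, 0.78 ± 0.27, and was higher in 6 of 6 same-numbered pairs, but it did not pass over all genes (edgeR unadjusted p = 0.00978, adjusted p = 0.54). Against Y-A, the level in Y-P differed by -0.27 ± 0.27 (edgeR adjusted p = 0.597). The fall from Y-E to Y-P was -1.08 without Y-E 6 (edgeR adjusted p = 0.021) and -1.29 with the split as a term (edgeR adjusted p = 0.00529).

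CISH encodes the STAT5-induced member of the SOCS family (ENSBGRG00000025465, chromosome 22, 12627128 to 12632106, minus strand). It spanned 26.1 to 59.3 CPM (median 41.3) in Y-A, 34.3 to 60.9 (median 43.8) in Y-E and 37.0 to 57.3 (median 47.9) in Y-P. The stages overlapped almost fully. Its log2 fold changes were 0.10 (95% interval -0.26 to 0.46) for Y-E vs Y-A, 0.15 (-0.21 to 0.51) for Y-P vs Y-A and 0.05 (-0.31 to 0.42) for Y-P vs Y-E, so differences of the size seen for SOCS3 in Y-P vs Y-E lay outside the interval for CISH.

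**Figure D3:**
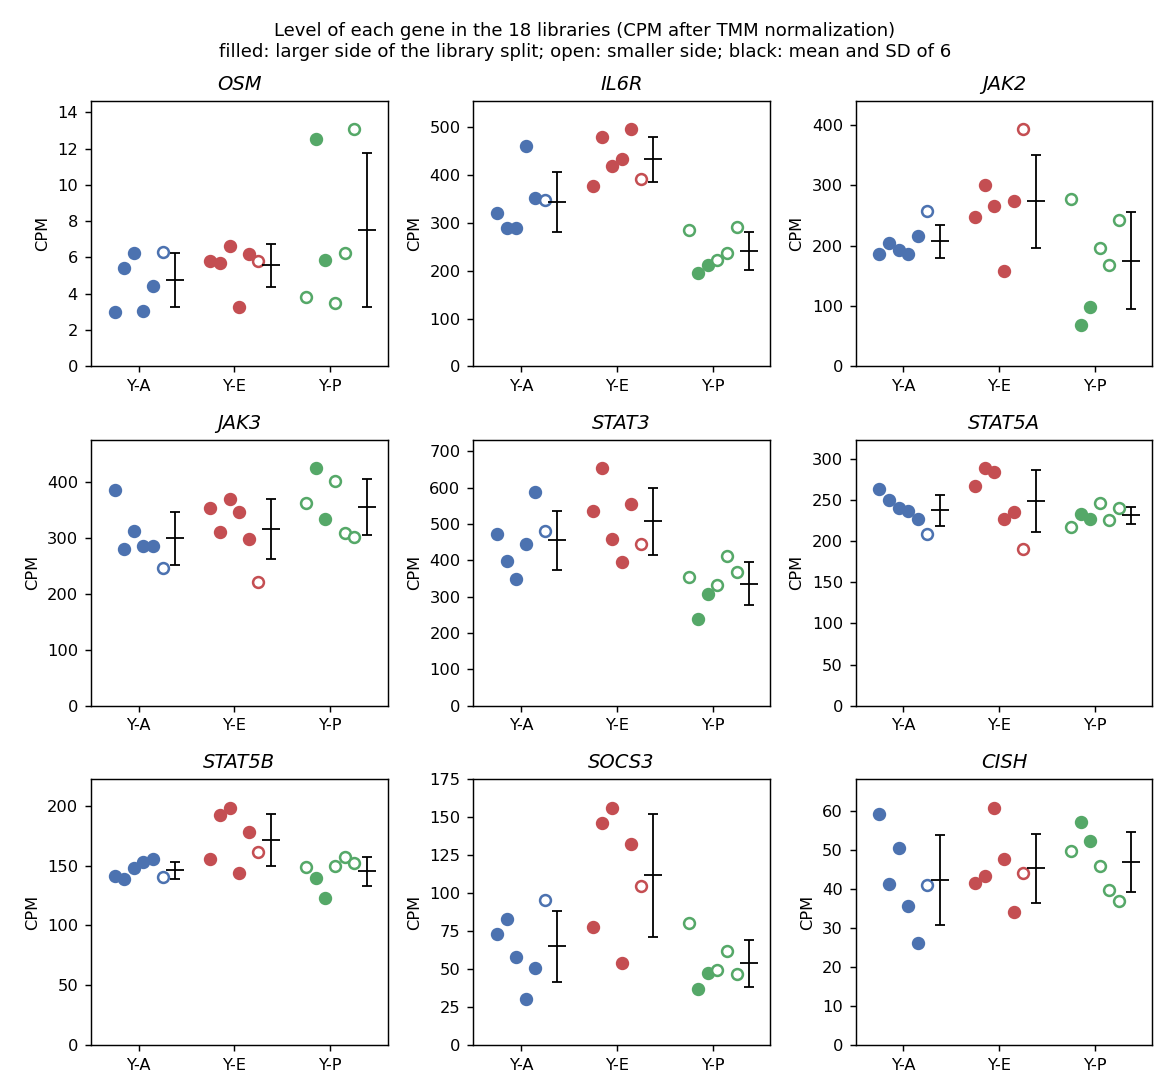
CPM of the 9 genes in each of the 18 libraries by stage, in order of replicate number within a stage; filled points are the 12 libraries of the larger set of the split, open points the 6 of the smaller set, and black marks give the mean and SD of 6. IL6R in Y-P lies wholly under Y-E (195 to 292 against 378 to 496 CPM), and the 2 filled Y-P points of JAK2 are its lowest values (69.6 and 99.2 CPM).

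In Y-P vs Y-E, 3 of the 9 genes passed, all lower, against 14.4% of all genes tested and 8.68% that passed as lower. The members' median log2 fold change was -0.24, and that of all genes 0.04. Without Y-E 6 the same 3 genes passed, against 13.7% of all genes, and with the split as a term JAK2 joined them, against 23.5%. In the larger set alone these 4 passed, against 17.6%, from only 2 Y-P libraries, the lowest of Y-P for IL6R, STAT3 and JAK2. In Y-P vs Y-A, 1 of 9 passed, against 5.83% of all genes and 3.61% that passed as lower, with a median of -0.04 for the members and 0.03 for all genes. With the split as a term 4 of 9 passed there (IL6R, JAK2 and STAT3 lower, JAK3 higher), against 17.6%, and in the larger set alone 3 of 9 (IL6R, JAK2 and STAT3), against 12.3%.

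In Y-E vs Y-A, 0 of 9 passed by edgeR and 0 by DESeq2, against 0.0207% of all genes by edgeR. All 9 log2 fold changes were above 0, with a median of 0.23 against -0.01 for all genes, and 3 members (SOCS3, IL6R and STAT5B) had an unadjusted p under 0.05, as did 6.2% of all genes tested. Since both comparisons with Y-E share its 6 libraries, the higher values in Y-E vs Y-A and the lower ones in Y-P vs Y-E are not separate observations.

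**Figure D4:**
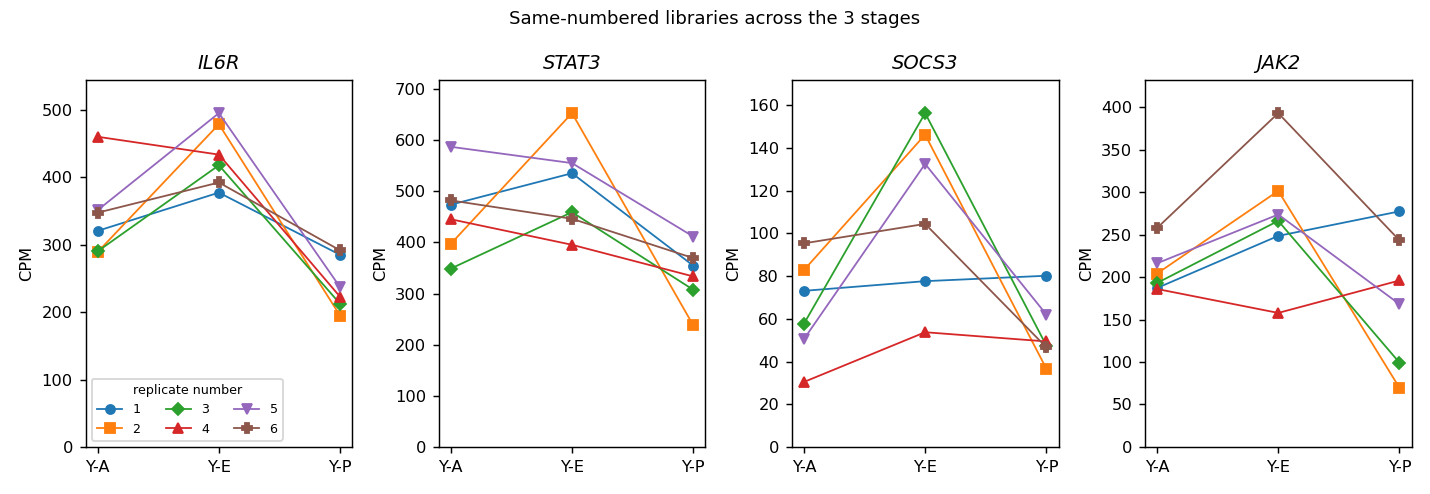
CPM of IL6R, STAT3, SOCS3 and JAK2 in the 3 stages, with lines joining libraries of the same replicate number, which the sources do not state to mark a cow. From Y-E to Y-P, IL6R and STAT3 go down on all 6 lines and SOCS3 on 5 of 6, while JAK2 goes down on 4 of 6.

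Pairs of members were compared as ratios of FPKM within a library. SOCS3 stood at a median of 0.877 times STAT3 in Y-A (0.374 to 1.14), 1.26 times in Y-E (0.746 to 1.87) and 0.836 times in Y-P (0.693 to 1.24). The log2 ratio was 0.628 higher in Y-E than in Y-A (two-sided exact permutation test, p = 0.102). The median ratio of JAK2 to JAK3 was 0.837 in Y-A and 0.993 in Y-E. In Y-P it was 0.625, with a range of 0.199 to 0.979. The log2 ratio of JAK2 to JAK3 differed by -0.918 between Y-P and Y-E (two-sided exact permutation test, p = 0.0671, Benjamini-Hochberg adjusted p = 0.281). Of 12 tests on 4 pairs, 0 passed. STAT5A and STAT5B kept close to equal FPKM, with a median ratio of 0.995 in Y-A, 1.01 in Y-P and 0.921 in Y-E. This too depends on the lengths behind FPKM, as mean CPM in Y-A was 238 for STAT5A and 146 for STAT5B.

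The rest of the pathway was read from 6 lists with 77 genes. Of 9 further IL-6 family ligands, 7 were in the table, 4 were tested and 0 passed in any comparison. IL6 itself had at most 26 counts in a library and more than 3 in only 4 of 18, and IL11 had at most 3 counts in any, so changes in these ligands were not detectable at this depth. LIFR, OSMR and CNTFR, the partner chains for other family members, were below the low-count filter. Of 7 listed receptors, 5 were in the table and 2 were tested. IL27RA, the IL-27 receptor chain that works with gp130 in lymphocytes, was the one that passed. Its CPM was 138 to 167 (median 146) in Y-A and 125 to 147 (median 142) in Y-E. In Y-P it was 152 to 215 (median 181). It rose in Y-P against Y-E by 0.42 on the log2 scale (edgeR adjusted p = 0.00597) and against Y-A by 0.33 (edgeR adjusted p = 0.0429). In the 12 libraries of the larger set, 2 of them Y-P, neither passed (0.27 and 0.20).

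Shares of all genes that passed, against which the counts of these lists stand, were 14.4% in Y-P vs Y-E and 5.83% in Y-P vs Y-A. Among the 6 other Janus kinases and STATs, all tested, 1 passed higher and 1 lower in Y-P vs Y-E, and 0 in the other comparisons. TYK2, a kinase of gp130, interferon and IL-12 type receptors, fell from 216 to 272 CPM (median 238) in Y-E to 110 to 201 (median 179) in Y-P, with no overlap (-0.51, edgeR adjusted p = 0.009). TYK2 did not pass with library size only (-0.35) or by limma on FPKM. STAT4, the IL-12 responsive factor of T and NK cells, rose from 61.6 to 114 CPM (median 88.2) in Y-E to 112 to 182 (median 124) in Y-P. Its log2 fold change was 0.60 (edgeR adjusted p = 0.0257), but 0.40 with the split as a term (edgeR adjusted p = 0.0782). In the larger set it was 0.44 (edgeR adjusted p = 0.18).

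Of 16 other brakes (SOCS proteins, PIAS proteins and phosphatases), 1 passed higher and 2 lower in Y-P vs Y-E, against 14.4% of all genes, and 0 in the other comparisons. PIAS1 and PIAS2, inhibitors of DNA binding by STATs, fell by 0.48 and 0.42 on the log2 scale (edgeR adjusted p = 0.0206 and 0.0267), but neither passed with library size only, by limma on FPKM or with only the 2 stages compared. PTPN11, the phosphatase SHP2, which can bind the same receptor site as SOCS3, rose by 0.28 (edgeR adjusted p = 0.035), but not past the threshold with the split as a term (0.22, edgeR adjusted p = 0.0801). All other SOCS genes of the list failed the test in all 3 comparisons.

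Of 16 receptors that signal through STAT5, 10 were tested, and 2 passed in Y-P vs Y-E, both lower, against 8.68% of all genes that passed as lower. CSF3R, the G-CSF receptor of neutrophils, stood at 2237 to 3151 CPM (median 2711) in Y-A, 2594 to 5374 (median 4119) in Y-E and 1545 to 2186 (median 1958) in Y-P. It fell by 1.09 on the log2 scale from Y-E to Y-P (edgeR adjusted p = 0.000426), with no overlap between these stages. CSF2RB, the shared chain of the GM-CSF, IL-3 and IL-5 receptors, fell from 447 to 700 CPM (median 578) in Y-E to 273 to 457 (median 324) in Y-P, by 0.72 on the log2 scale (edgeR adjusted p = 0.00236).

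Of 23 known STAT target genes, 19 were tested. In Y-P vs Y-E, 4 passed lower and 1 higher, with a list median of -0.22 against 0.04 for all genes, and in Y-P vs Y-A 2 passed lower and 1 higher. BCL6, a transcriptional repressor induced by STAT3, spanned 251 to 473 CPM (median 298) in Y-A, 313 to 662 (median 563) in Y-E and 137 to 236 (median 193) in Y-P. Y-P lay below both other stages without overlap, as 2.32% of all genes did against Y-A, and the log2 fold changes were -1.48 against Y-E (edgeR adjusted p = 0.000271) and -0.78 against Y-A (edgeR adjusted p = 0.027). IL1RN, the IL-1 receptor antagonist, ranged from 200 to 357 CPM (median 309) in Y-E and from 122 to 192 (median 153) in Y-P, again without overlap, and fell by 0.89 on the log2 scale (edgeR adjusted p = 0.00307). Against Y-A its log2 fold change was -0.70 (edgeR adjusted p = 0.0279). It did not pass in the 12 libraries of the larger set, 2 of them Y-P, though the value was no smaller (-0.75, edgeR adjusted p = 0.0989). The other two that fell, MCL1 (-0.48) and IRF1 (-0.61), were outside the naming rule and are named because the count is small.

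FOS, an immediate-early gene that many signals besides STAT3 induce, moved the other way. It spanned 31.9 to 71.4 CPM (median 38.8) in Y-A, 34.0 to 55.9 (median 41.1) in Y-E and 56.5 to 1076 (median 193) in Y-P. The Y-P libraries thus spread over a far wider range than the rest. The log2 fold change was 2.96 against Y-E (edgeR adjusted p = 0.00211) and 2.94 against Y-A (edgeR adjusted p = 0.00673), and both passed in every alternative. Without Y-P 2 the values were 2.15 and 2.13, and in the 12 libraries of the larger set 3.81 and 3.89. With the replicate block they were 2.36 and 2.38.

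**Figure D5:**
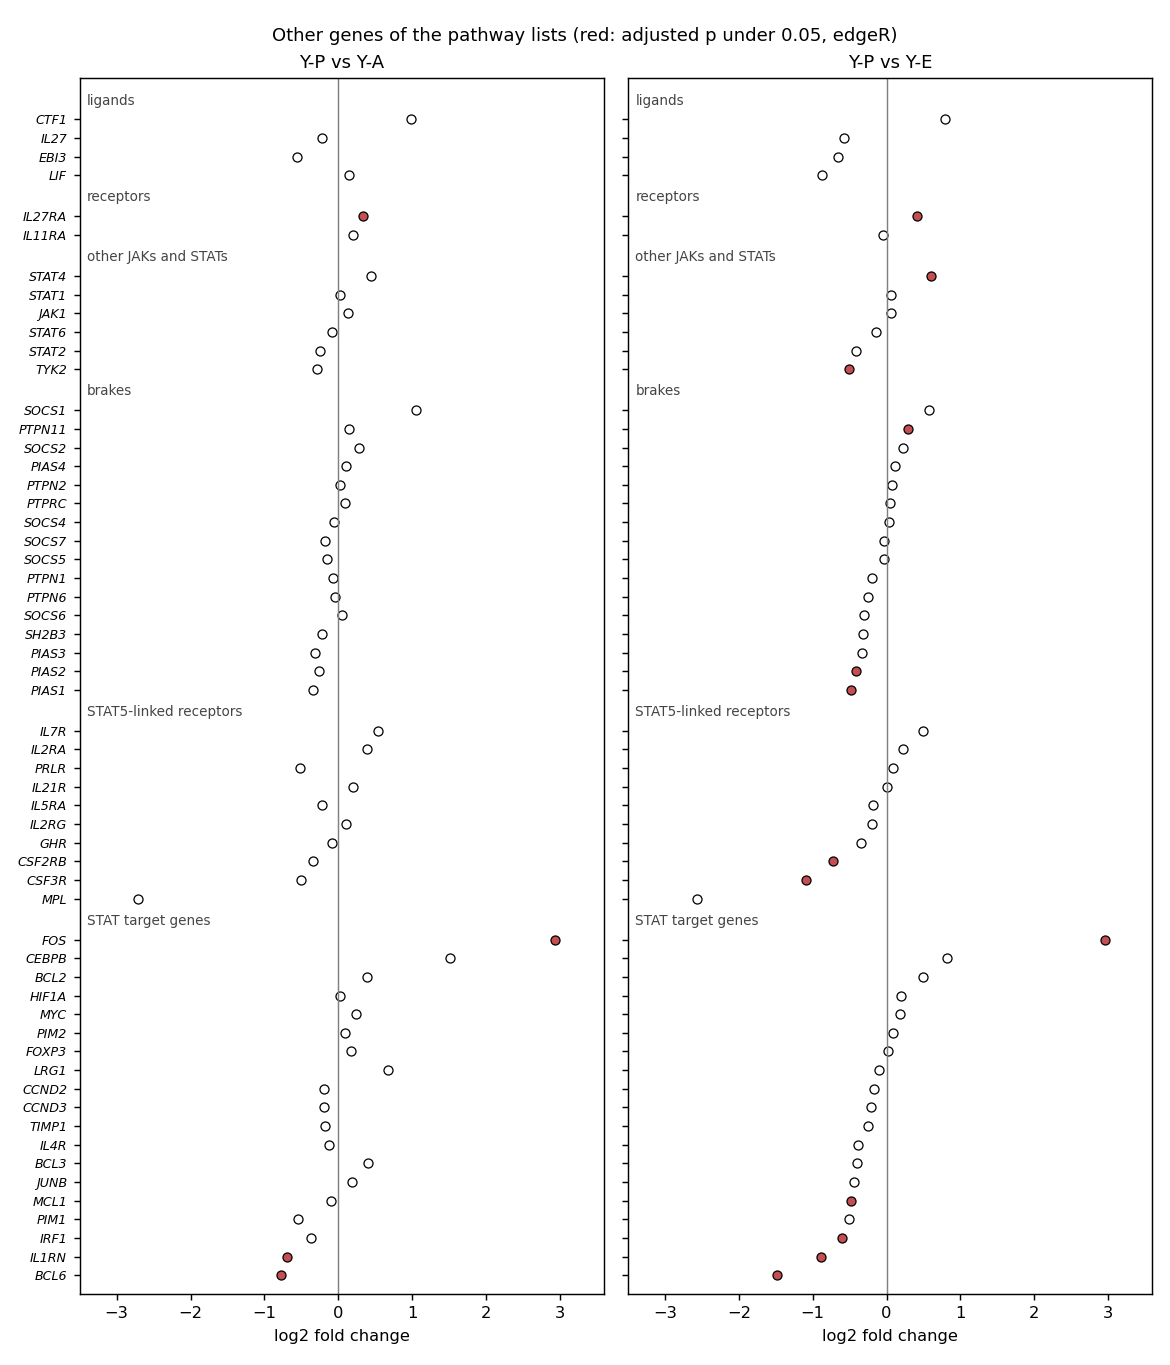
Log2 fold change of the tested genes of the 6 pathway lists, one row a gene, in Y-P vs Y-A (left) and Y-P vs Y-E (right); red points have an adjusted p under 0.05 by edgeR. In Y-P vs Y-E, CSF3R (-1.09), BCL6 (-1.48) and FOS (2.96) lie farthest from 0 among those that passed, and all ligands are open points.

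Markers of some blood cell types also differed between the stages, mainly those of neutrophils, T cells and red cells. Of all 14508 genes tested, 1259 (8.68%) passed as lower and 837 as higher in Y-P vs Y-E. The numbers for Y-P vs Y-A were 524 (3.61%) and 322. Of 10 listed neutrophil markers, 6 were in the table, CSF3R among them. Their summed level was 3663 to 5958 CPM in Y-A, 5045 to 9499 in Y-E and 2961 to 4137 in Y-P. Among these 6, 4 passed as lower in Y-P vs Y-E. The monocyte sum (4 of 6 genes) was 423 to 883 CPM in Y-A, 382 to 965 in Y-E and 317 to 705 in Y-P, and 0 of 4 passed. The T cell sum (4 of 6 genes) was 619 to 783, 593 to 785 and 693 to 1311 CPM, with 3 of 4 higher in Y-P vs Y-E and 2 of 4 in Y-P vs Y-A. The red cell sum (4 of 6 genes) ran from 439 to 10500 CPM in Y-A, 92.1 to 4472 in Y-E and 39.0 to 122 in Y-P, with 4 of 4 lower in Y-P vs Y-A and 3 of 4 in Y-P vs Y-E. The B cell, NK cell and eosinophil lists had 0 genes that passed in any comparison. In the platelet list (3 of 6 genes, with GP1BB near 0), 1 passed as lower in each comparison with Y-P. The part of these shifts in the fall of IL6R, STAT3, SOCS3, CSF3R and BCL6, or in the rise of IL27RA and STAT4, was not tested.

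Likeness of pattern was measured as the root mean square difference between z-scored log2 CPM over the 18 libraries, where 0 means the same pattern and the median over all genes was 1.39 to 1.41. Among the members, IL6R and STAT3 were nearest to each other (0.61), and JAK2 and JAK3 were farthest apart (1.70). The genes outside the list nearest to SOCS3 were SBNO2 (0.448), ENSBGRG00000020555 (0.458) and SNX18 (0.502). Nearest to STAT3 were A2M (0.323), SERINC3 (0.327) and DENND10 (0.331), and nearest to IL6R were SGMS1 (0.334), DOCK8 (0.366) and ENSBGRG00000020281 (0.372). CISH had looser neighbours, PLD4 (0.504), TBC1D17 (0.514) and ASPSCR1 (0.535). These values are descriptions over libraries that share stage and composition.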

How the data were processed

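RNA from the whole blood of yaks was measured in 18 libraries, 6 per stage, grouped by sample title. The authors trimmed reads with cutadapt 1.9, aligned them with HISAT2 2.2.1 to the Bos grunniens Ensembl genome and assembled and quantified transcripts with StringTie 2.1.6 and ballgown. They deposited FPKM values, which divide fragments by transcript length and library depth, and whole-number counts per gene. The tool behind the counts is not given in the sources used here. Gene positions are copied from the same table, and no sequence is printed.

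From the deposited counts, edgeR 4.0.16 in R 4.3.3 (TMM, filterByExpr, a quasi-likelihood model of stage alone in the 18 libraries) gave log2 fold changes, SEs and Benjamini-Hochberg adjusted p over 14508 genes. The procedure was also run on simulated counts without shifts in blood composition, the library split or shared cows, so that run does not bear on them. Log2 CPM for the likeness measure used a prior count of 2. Ratios of FPKM were compared by exact permutation tests (scipy 1.17.1), and pairs with IL6ST were left out. limma 3.58.1 was run on log2(FPKM + 1) and log2(FPKM + 0.1), and DESeq2 1.42.0 on the counts. Other alternatives were other scalings, no filter, the 2 stages alone, no hemoglobin genes, a replicate block and each library left out. The library split and the block in 17 libraries (without Y-E 6) were added after seeing the data.

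Members and lists were chosen with earlier results of these data known. Named were all members, up to 2 higher and 2 lower passing genes per pathway list and comparison, and the 3 genes nearest in pattern to IL6R, STAT3, SOCS3 and CISH. The study tracked 6 cows, but the sources do not state that a replicate number marks a cow. Deviations from the stage mean correlated between same-numbered libraries at 0.110 to 0.515 for Y-A and Y-E (6 of 6 over 0.1), -0.0492 to 0.369 for Y-A and Y-P (4 of 6) and -0.0544 to 0.400 for Y-E and Y-P (4 of 6). Libraries from the same cows are not independent, which the model of stage alone leaves out. Total counts were 30247267 to 48401076, and OSM had 91 to 543 counts a library. The SDs and SEs cover the spread between libraries.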

Additional observations from a re-analysis of the deposited data

Results flagged for a closer look

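In 27 groups of 6 libraries (9 genes in 3 stages), the highest or lowest library was compared with its nearest neighbour by Dixon's test, which chance flags in about 1 of 20 groups. IL6R in Y-A 4, at 460 CPM, stood above the next Y-A library at 351 CPM, a gap of 0.637 of the range of Y-A. OSM in Y-E 4, at 3.27 CPM, lay below the next Y-E library at 5.69 CPM, a gap of 0.714 of the range of Y-E. Without Y-A 4, IL6R no longer passed in Y-P vs Y-A.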

How the results depend on the processing

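The fall of IL6R, STAT3 and SOCS3 in Y-P vs Y-E passed by edgeR in every fit that left out 1 library (IL6R -0.91 to -0.79, STAT3 -0.66 to -0.51, SOCS3 -1.21 to -0.94), and 3 to 4 members passed. In Y-P vs Y-A 0 to 1 members passed, and in Y-E vs Y-A 0 throughout. Over all genes these fits gave 1372 to 2305, 386 to 1077 and 3 to 23 passing genes in the same order. For Y-P vs Y-A, the number of members passing was 0 with library size only and with only the 2 stages compared, 2 by DESeq2 (IL6R and STAT3), 4 with the split as a term and 3 in its larger set. By both limma fits it was 1, but this was JAK3, higher, in place of IL6R. For Y-P vs Y-E it was 4 by DESeq2, with STAT5B, and 1 by limma on log2(FPKM + 0.1), where SOCS3 and STAT3 missed the threshold. The causes were not tested.

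Scaling by library size only moved the median log2 fold change of all genes from 0.0307 to 0.192 in Y-P vs Y-A and from 0.0417 to 0.184 in Y-P vs Y-E, so changes are relative to those medians. Calls went from 322 higher and 524 lower to 1075 and 258 in Y-P vs Y-A, and from 837 and 1259 to 1795 and 758 in Y-P vs Y-E. With limma on log2(FPKM + 1) they were 1975 and 230, and 2515 and 672. Over all genes, 3 passed in Y-E vs Y-A, against 64 by DESeq2, 14 with the replicate block, 54 with the replicate block in 17 libraries and 13 in the larger set. In Y-P vs Y-A 846 passed, against 1333 with library size only, 1581 by DESeq2, 2205 and 1799 by limma with pseudocounts of 1 and 0.1, 1282 with the replicate block, 482 with only the 2 stages, 2559 with the split as a term and 1887 in the larger set. In Y-P vs Y-E 2096 passed, against 3187 by limma on log2(FPKM + 1) and 3403 with the split as a term.

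Differences close to 0 changed sign. STAT5A in Y-P vs Y-A was 0.12 with library size only, 0.16 and 0.17 by limma and 0.054 with the split as a term, and in Y-P vs Y-E 0.043, 0.10 and 0.10 with the first 3. STAT5B in Y-P vs Y-A was 0.15, 0.19 and 0.19 with those 3. With 1 library left out, CISH ran from -0.0086 to 0.21 in Y-E vs Y-A and from -0.016 to 0.16 in Y-P vs Y-E, STAT5B in Y-P vs Y-A from -0.052 to 0.033, the log2 ratio of CISH to STAT5B in Y-E vs Y-A from -0.248 to 0.0186, and that of STAT5A to STAT5B in Y-P vs Y-A from -0.0643 to 0.0188.

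With the replicate block no member gained or lost its adjusted p call. Of the named pathway genes in Y-P vs Y-E, single omissions ended the call of STAT4 (without Y-E 2, 3, 5 or Y-P 5), PIAS1 (without Y-E 5), PIAS2 (without Y-E 2, 5 or Y-P 3) and PTPN11 (7 of 18 omissions), with edgeR adjusted p up to 0.0676, 0.0501, 0.0612 and 0.0849. In Y-P vs Y-A they ended that of BCL6 (without Y-A 5, Y-P 2 or 4), IL1RN (without Y-A 1, 5, Y-P 2 or 4) and IL27RA (11 of 18 omissions), with adjusted p up to 0.0622, 0.0657 and 0.104. In Y-P vs Y-E, TYK2, PIAS1 and PIAS2 missed the threshold with library size only (-0.35, -0.33 and -0.27) and by both limma fits (adjusted p = 0.0696 and 0.0935, 0.147 and 0.175, 0.24 and 0.264), and PIAS1 and PIAS2 also with only the 2 stages (edgeR adjusted p = 0.0559 and 0.0753). PTPN11 missed it without the low-count filter, with only the 2 stages, with the replicate block in 17 libraries and under both forms of the split (edgeR adjusted p = 0.0522 to 0.355). In Y-P vs Y-A, IL27RA missed it without the filter, with only the 2 stages and in the larger set (edgeR adjusted p = 0.0611, 0.117 and 0.308), and BCL6 and IL1RN did by limma on log2(FPKM + 0.1) (adjusted p = 0.0642 and 0.0665). Depth limits the ligands IL6 and IL11, which were not detectable in most libraries.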
